A study of Mus musculus with 8 samples.

Results

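The immunoproteasome and the machinery that loads peptides onto MHC class I molecules were followed through 10 genes: the inducible catalytic subunits Psmb8, Psmb9 and Psmb10, the proteasome activator subunits Psme1 and Psme2, the peptide transporter genes Tap1 and Tap2, the chaperone gene Tapbp, the light chain gene B2m and the transactivator gene Nlrc5. The set was chosen with earlier results of these data known. Its genes were found by symbol, with no threshold on measured values. All 10 were found among the 31406 genes with a count in the libraries compared here. Each of the 10 passed the filter on low counts, which left 18756 genes to be tested.

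RNA sequencing was done on primary microglia cultured from the striatum of wild-type C57/BL6 pups aged 2 to 4 days. All cultures were kept for 15 days and then activated with LPS (0.01% by volume) and IFN-γ (0.002% by volume, a human protein according to the methods) over 48 h. At 24, 32 and 40 h of activation, the 4 libraries of the A2A antagonist group received the adenosine A2A receptor antagonist SCH 58261 at 200 nM, and the 4 of the dual group received SCH 58261 together with the A3 receptor agonist 2-Cl-IB-MECA at 200 nM. Sample titles define these groups, whereas the treatment field of the labels names the agonist for the libraries titled without it and omits it for the others, so every direction given here rests on the titles. The methods give fewer replicates of ligand-treated cells than the labels list, whereas a figure legend of the paper gives 4, the number in the labels. Pups came from 4 pregnant animals, and no label ties a library to an animal or culture. P-values therefore measure the spread between libraries, which may be technical. Activated cells without a ligand were not analysed here, so the effect of SCH 58261 or of activation on these genes was not measured.

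Proteasomes cut cytosolic proteins into peptides. When cells sense interferon, newly made proteasomes take up the inducible catalytic subunits in place of their constitutive partners, which changes the peptide ends that are produced, and the activator formed by Psme1 and Psme2 opens the gate of the core particle. The transporter formed by Tap1 and Tap2 carries peptides into the endoplasmic reticulum, where tapasin, the product of Tapbp, helps to fit them into the heavy chain paired with B2m, and Nlrc5 drives transcription of many of these genes. Resting microglia carry little of this machinery and raise it on exposure to IFN-γ.

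Sequence near the start of 4 of the genes is shown because interferon acts on this pathway through short promoter elements. A window from 250 bases before to 50 bases after the RefSeq start (GRCm38.p6) was at hand for 8 of the 10 genes, 9 windows in all. They were searched on both strands for the interferon-stimulated response element (ISRE, 2 copies of GAAA with any 2 bases between them), the interferon-γ-activated site (GAS, TTCNNNGAA), the NF-kappaB motif, the CCAAT box and the cyclic AMP response element (CRE, TGACGTCA). Capitals mark the matches, and each sequence is written 5′ to 3′ on the plus strand.
B2m (chr2:122147437-122147685): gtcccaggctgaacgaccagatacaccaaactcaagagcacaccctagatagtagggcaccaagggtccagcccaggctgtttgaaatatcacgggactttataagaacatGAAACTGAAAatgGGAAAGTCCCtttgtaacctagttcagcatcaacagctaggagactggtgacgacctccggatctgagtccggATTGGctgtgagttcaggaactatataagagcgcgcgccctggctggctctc
Psmb8 (chr17:34198088-34198116): tcctccgctgTTCCCAGAAgatgcccccc
Psme1 (chr14:55578494-55578522): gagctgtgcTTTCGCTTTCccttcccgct
Tap1 (chr17:34187322-34187350): gggctcggctttCCAATcagcggctgcgc

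In the B2m sequence an ISRE match lay 139 bases before the start, followed by an NF-kappaB match at 126 bases and a CCAAT match at 53 bases. The Psmb8 stretch holds a GAS match 97 bases before the RefSeq start, and the ISRE match of Psme1 began 9 bases after its own. In the deposited coordinates Psmb8 begins further upstream, at chr17:34197721, and so does Psme1, at chr14:55578123. Both stretches therefore lie inside the annotated genes. Each of the 9 windows overlaps an annotated exon of its own gene before the RefSeq start. ISRE matches were present in 2 of the 9 windows against 3.44% of 32851 mouse promoter windows of the same length. GAS matches were present in 1 (8.3% of all windows), NF-kappaB matches in 1 (8.46%), CCAAT matches in 4 (37.4%) and CRE matches in 0 (1.79%). The CCAAT bases of Tap1 also count for Psmb9, since the 2 genes run away from each other from RefSeq starts 225 bases apart. A match describes letters only, and no binding was measured.

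The comparison of the groups asks what the A3 receptor agonist changed when it was given together with the A2A antagonist. With the agonist added, transcripts of 3 of the 10 genes were lower: Psmb10 by 14.8%, Psme2 by 12.98% and Psmb8 by 12.9% (adjusted p = 0.0260, 0.0358 and 0.0393, edgeR quasi-likelihood test with Benjamini-Hochberg adjustment over all genes). None was higher, and none reached the 1.5-fold change that the study asked for between ligand-treated and vehicle-treated cells. For combined against single treatment the study used other criteria. The count of 3 went to 0 when any of antagonist replicates 2, 3 and 4 or either of dual replicates 1 and 3 was left out, to 1 (Psmb10) when dual replicate 2 or 4 was left out, and to 0 when the trend with gene length was taken out. Of all 18756 genes, 0.208% were called by the same rule, 0.16% lower and 0.048% higher. All 10 log2 fold changes were below 0, as were 48.5% of those of all genes, a share that was larger among shorter genes (given below). A lower level in the dual group at an unadjusted p under 0.05 was found for 8 of 10 genes, against 6.81% of all genes. The median log2 fold change of the 10 genes was -0.14, and that of all genes 0.0038. Because these genes are well expressed, they were also set beside the 4358 genes at or above the level of the lowest of them, of which 0.482% were called lower, 55.1% were below 0 and 13.7% had a lower level at an unadjusted p under 0.05, with a median of -0.0079. The 10 genes varied together across libraries, so they are not independent of each other. They were also chosen with earlier results of these data known, so the shares describe the genes and are no independent test of them.

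**Figure D1:**
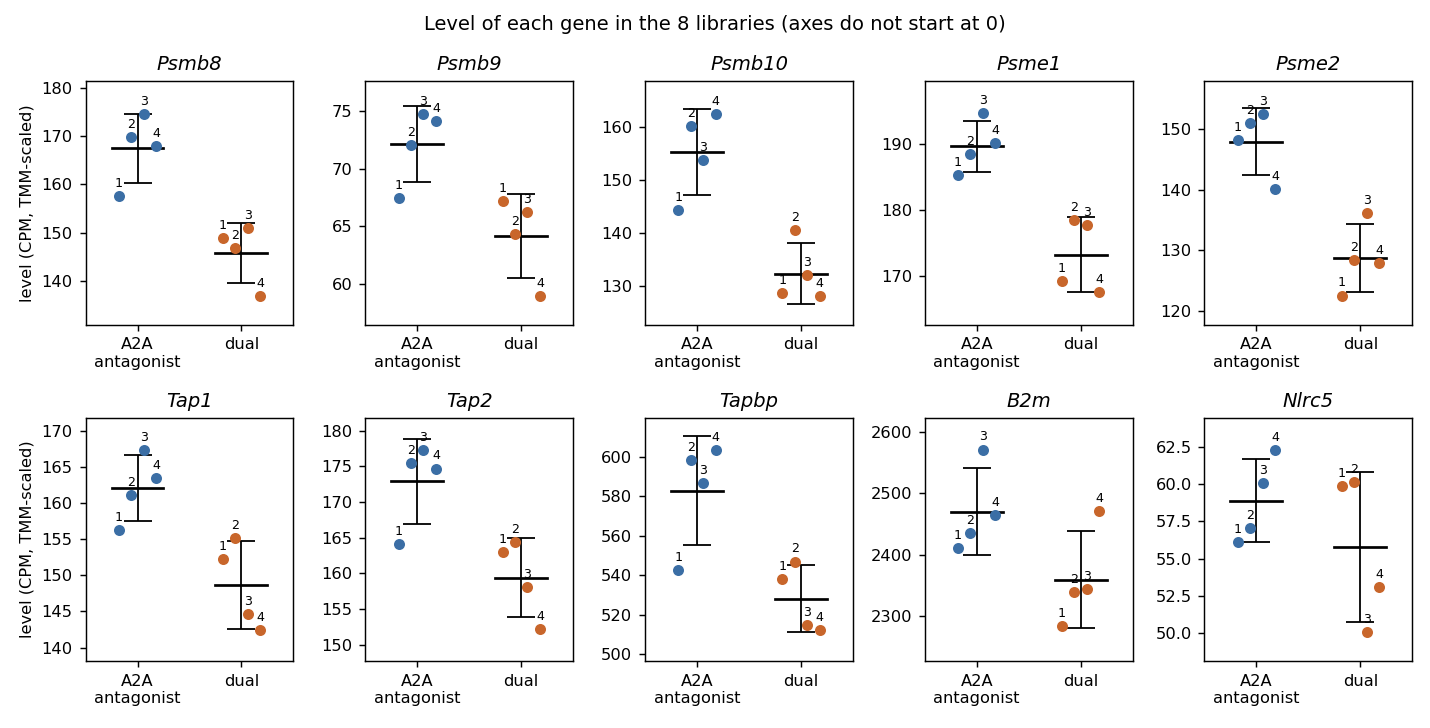
Level of each gene, in CPM (counts per 1e6 counts) scaled with TMM factors, in the 4 A2A antagonist libraries (blue) and the 4 dual libraries (orange), numbered by replicate; the bar is the mean and the whiskers are the SD (n = 4), and the vertical axes do not start at 0. For Psmb8, Psmb9, Psmb10, Psme1, Psme2 and Tap1 all orange points lie below all blue points, whereas for Tap2, Tapbp, B2m and Nlrc5 the groups overlap.

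The inducible catalytic subunits take the place of the chymotrypsin-like (Psmb8), caspase-like (Psmb9) and trypsin-like (Psmb10) sites of the core. Psmb10 (ENSMUSG00000031897, GRCm38 chr8:105935735-105938444, minus strand) was present at 144, 160.2, 154 and 162.5 CPM (counts per 1e6 counts, scaled between libraries) in the A2A antagonist libraries 1 to 4 and at 129, 141, 132 and 128 CPM in the dual libraries. All dual libraries lay below all antagonist libraries, with dual replicate 2 closest to them. The means were 155 ± 8.11 and 132 ± 5.78 CPM (SD, n = 4 each), and the log2 fold change was -0.23 (SE 0.0416, adjusted p = 0.0260).

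Psmb8 (ENSMUSG00000024338, chr17:34197721-34201454, plus strand) was present at 158, 169.8, 175 and 168 CPM with the antagonist and at 149, 147, 151 and 137 CPM with both ligands. The groups did not overlap, and dual replicate 4 was the lowest library. Its log2 fold change was -0.20 (SE 0.0394, adjusted p = 0.0393). In the annotation 498 of the exon bases of Psmb8 are shared with Gm20496 on the other strand, and whether reads were counted by strand is not given in the sources used here, so reads over those bases cannot be assigned to 1 of the 2 genes.

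Psmb9 (ENSMUSG00000096727, chr17:34181988-34187764, minus strand) was the least abundant of the inducible subunits. Its level was 67.5, 72.1, 74.8 and 74.2 CPM with the antagonist and 67.2, 64.3, 66.2 and 58.9 CPM with both ligands. The groups were apart only by the narrow gap between antagonist replicate 1 and dual replicate 1. The log2 fold change of -0.17 (SE 0.0462) did not pass the test (adjusted p = 0.114). Its exons share 212 bases with Tap1 on the other strand.

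The activator subunits form a ring that docks on the ends of the core. Psme2 (ENSMUSG00000079197, chr14:55587441-55591113, minus strand) was present at 148, 151, 153 and 140.2 CPM in the antagonist libraries and at 122.5, 128, 136 and 128 CPM in the dual libraries. The groups did not overlap, and antagonist replicate 4 was the lowest of its group for this gene alone. The log2 fold change was -0.20 (SE 0.0388, adjusted p = 0.0358).

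Of the 31-base words of Psme2, 33.5% recur in the near-identical copy Psme2b, so reads could be split between them. In antagonist replicate 4, where Psme2 was lowest, Psme2b was at its highest, 74.5 CPM against 59.4 to 62.7 CPM in the other antagonist libraries. When the counts of the 2 genes were summed, the log2 fold change was -0.22 (adjusted p = 0.0187). Psme2b by itself had a log2 fold change of -0.26 (SE 0.0585, adjusted p = 0.0651).

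Psme1 (ENSMUSG00000022216, chr14:55578123-55581529, plus strand) was present at 185, 188, 195 and 190.1 CPM with the antagonist and at 169, 178.5, 178 and 167.5 CPM with both ligands. The groups did not overlap, and the antagonist libraries were closely spaced, with an SD of 3.88 CPM around 189.6 CPM (n = 4). The log2 fold change of -0.13 (SE 0.0337) did not pass the test (adjusted p = 0.101).

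Tap1 and Tap2 encode the subunits of the transporter. Tap1 (ENSMUSG00000037321, chr17:34187553-34197225, plus strand) was present at 156, 161, 167 and 163 CPM with the antagonist and at 152, 155, 145 and 142.5 CPM with both ligands. The groups were apart by the small distance between antagonist replicate 1 and dual replicate 2. Its log2 fold change was -0.13 (SE 0.0365, adjusted p = 0.145). Tap2 (ENSMUSG00000024339, chr17:34203527-34216321, plus strand) was present at 164.1, 175.5, 177 and 175 CPM with the antagonist and at 163, 164.4, 158 and 152 CPM with both ligands. Here dual replicate 2 reached the level of antagonist replicate 1, so the groups overlapped, and the log2 fold change was -0.12 (SE 0.0363, adjusted p = 0.164). Neither transporter gene passed the test. Exons of Tap2 share 533 bases with Gm15821 and 165 bases with Gm20496, each on the other strand.

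Psmb9, Tap1, Psmb8 and Tap2 lie within 34334 bases of each other in the MHC region (GRCm38 chr17:34181988-34216321), with 2 further genes of the deposited table between them, Gm15821 and Gm20496. Psme1 and Psme2 are neighbours on chromosome 14. These 6 genes therefore share chromosomal neighbourhoods and, in part, overlapping exons.

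Tapbp (ENSMUSG00000024308, chr17:33915899-33929288, plus strand) encodes tapasin, which holds the empty heavy chain next to the transporter. Its level was 543, 598, 587 and 603.5 CPM with the antagonist and 538, 547, 515 and 512 CPM with both ligands. Antagonist replicate 1 lay among the dual libraries, and the other antagonist libraries lay above all of them. Tapbp had a log2 fold change of -0.14 (SE 0.0368, adjusted p = 0.101). Of its exon bases, 904 are shared with Gm19412 on the other strand and 149 with Zbtb22 on the same strand.

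B2m (ENSMUSG00000060802, chr2:122147686-122153083, plus strand) encodes the light chain that every class I molecule needs. Its level was 2411, 2435, 2571 and 2464 CPM with the antagonist and 2284, 2339, 2344 and 2471 CPM with both ligands. Dual replicate 4, the lowest library for 7 of the 10 genes, was the highest dual library for B2m and lay within the antagonist range. For B2m the log2 fold change was -0.07 (SE 0.0323, adjusted p = 0.406).

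Nlrc5 (ENSMUSG00000074151, chr8:94434356-94527272, plus strand) encodes the transactivator of the class I promoters. Its level was 56.15, 57.1, 60.1 and 62.25 CPM with the antagonist and 59.9, 60.1, 50.1 and 53.1 CPM with both ligands. Dual replicates 1 and 2 lay inside the antagonist range and dual replicates 3 and 4 below it. The log2 fold change was -0.08 (SE 0.0552, adjusted p = 0.581), with the largest SE and p of the 10. It lay between -0.12 (without dual replicate 2) and -0.03 (without dual replicate 3) when each library was left out.

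Across the 10 genes, all dual libraries lay below all antagonist libraries for 6, whereas this was so for 4.06% of all genes tested and for 8.35% of the genes of like level. For each of these 6 an exact permutation test (two-sided, 70 arrangements of 4 libraries against 4) gave p = 0.0286, the smallest it can give. Groups that do not overlap always give this p, so it restates the separation and adds no evidence to it. The position of a library within its group was shared by many of the genes. Antagonist replicate 1 was the lowest of its group for 9 of the 10 genes and antagonist replicate 3 the highest for 7. Dual replicate 4 was the lowest of its group for 7 and dual replicate 2 the highest for 6.

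**Figure D2:**
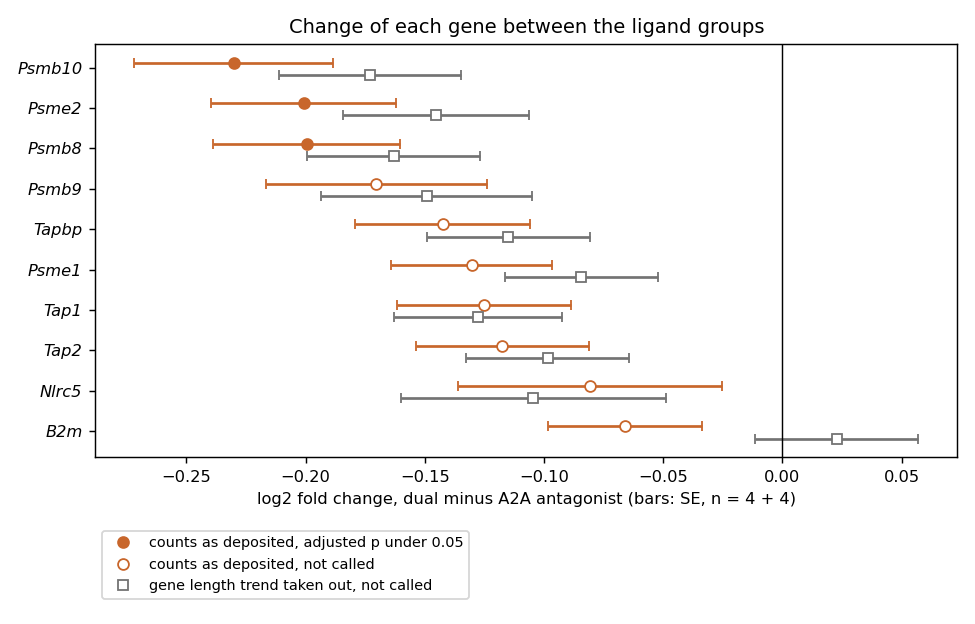
Log2 fold change of each gene (dual minus A2A antagonist, horizontal axis) with its SE from the edgeR fit (n = 4 against 4), on the counts as deposited (orange, filled where the adjusted p was under 0.05) and after the trend with gene length was taken out (grey squares). All orange values are below 0, 3 are filled, no grey square was called, and B2m is the gene that crosses 0.

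The calls on Psmb8, Psmb10 and Psme2 depended on which libraries and which test were used. Psmb8 was called without antagonist replicate 1 (adjusted p = 0.0158) and was not called without antagonist replicate 2, 3 or 4 (0.142, 0.116 and 0.123) or dual replicate 1, 2, 3 or 4 (0.0537, 0.0721, 0.0859 and 0.0635). Psme2 was called without antagonist replicate 1 (0.0359) and not without antagonist replicate 2, 3 or 4 (0.142, 0.0974 and 0.0932) or dual replicate 1, 2, 3 or 4 (0.0756, 0.0723, 0.0650 and 0.0577). Psmb10 lost its call without antagonist replicate 2, 3 or 4 (0.106, 0.0811 and 0.0932) and without dual replicate 1 or 3 (0.0540 and 0.0859), and kept it in the other 3 fits. Tapbp was called without antagonist replicate 1 (adjusted p = 0.0204). In all 8 of these fits the 3 log2 fold changes stayed between -0.26 and -0.17. In the other direction, DESeq2 called 8 of the 10 genes lower, all but B2m and Nlrc5. It called lower 3.36% of the 8877 genes it adjusted. Without the filter on low counts edgeR called 6 of the 10 lower, and 0.806% of 31406 genes.

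Gene length moved with the difference between the groups. Across the 11062 genes whose mean log2 CPM was 3 or more, the log2 fold change and the length of the gene had a Spearman rho of 0.45, as a description over genes of the same libraries. The median log2 fold change was -0.10 for genes up to 1000 bases (where B2m lies), -0.06 from there to 2000 bases (Psmb10 and Psme2), -0.04 to 3000 bases (Psmb8 and Psme1), -0.02 to 4000 bases (Psmb9, Tap2 and Tapbp), -0.0005 to 6000 bases (Tap1) and 0.03 above (Nlrc5). Of the 10 genes, 9 lay below the median of their length range, and B2m lay above its own. With the length trend of each library taken out, an alternative chosen after the data were seen, edgeR called 9 genes in all and 0 of the 10, of which 8 had a lower level at an unadjusted p under 0.05. In that fit 0.0373% of all genes were called lower and 4.06% had a lower level at an unadjusted p under 0.05. Psmb10 then had a log2 fold change of -0.17 (adjusted p = 0.103), Psmb8 of -0.16 (0.108) and Psme2 of -0.15 (0.188). The value of B2m turned to 0.02 (adjusted p = 0.867). Why length moved with the groups was not tested.

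**Figure D3:**
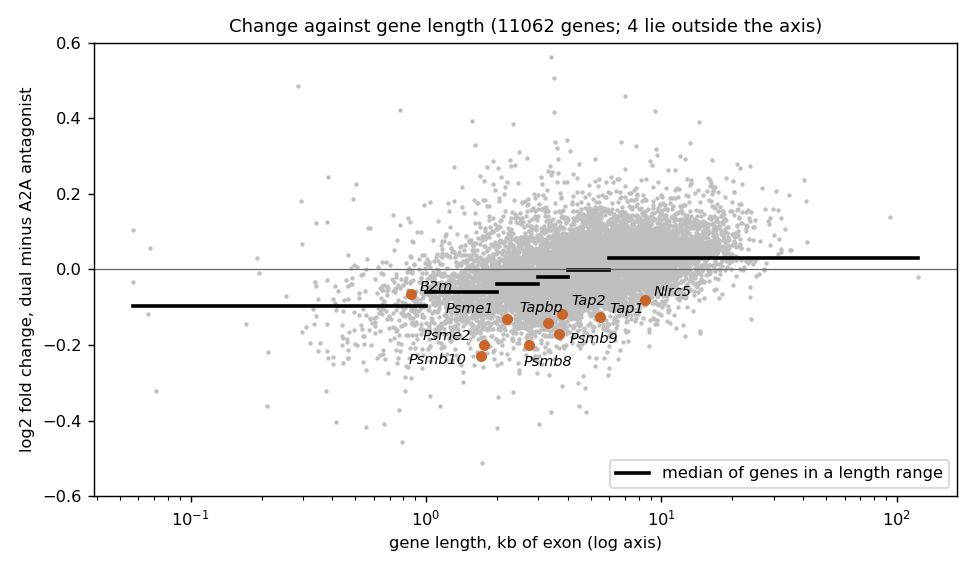
Log2 fold change (dual minus A2A antagonist) of 11062 genes against gene length in kb of exon (log axis), with the 10 genes in orange and the median of each length range as a black bar. Medians run from -0.10 in the shortest range to 0.03 in the longest, and the orange points lie below their bar except B2m.

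Per kb of exon, the level of the 10 genes spanned a wide range. Over all 8 libraries B2m stood at 2808 ± 106 CPM per kb (SD, n = 8), 16.7-fold above Tapbp at 168.5 ± 10.98. Psmb10 (84.3 ± 8.12), Psme1 (82.1 ± 4.45) and Psme2 (78.4 ± 6.54) came next, with ranges that overlapped from neighbour to neighbour. Below them stood Psmb8 (57.3 ± 4.79), Tap2 (44.0 ± 2.37), Tap1 (28.4 ± 1.59), Psmb9 (18.6 ± 1.46) and Nlrc5 (6.75 ± 0.483), each without overlap with the next. By this measure the mean level per length of Tap2 was 1.55-fold that of Tap1, and Tap2 was above Tap1 in every library. Both transporter genes share exon bases with genes on the other strand, and the levels rest on the deposited gene lengths. The difference between them is therefore uncertain. B2m exceeded Nlrc5 416-fold.

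**Figure D4:**
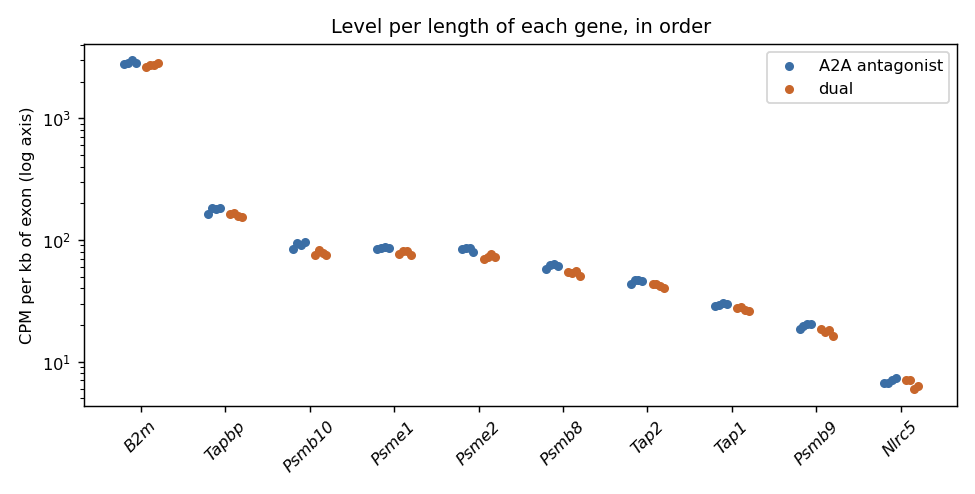
Level of each gene in CPM per kb of exon (log axis) in the 4 A2A antagonist libraries (blue) and the 4 dual libraries (orange), ordered by the mean over 8 libraries. Levels run from 2808 for B2m to 6.75 for Nlrc5, and the ranges of Psmb10, Psme1 and Psme2 overlap.

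Each inducible subunit was then set against the constitutive subunit whose place it takes, as a ratio of levels per length in the same library. For Psmb10 over Psmb7 the ratio was 3.82 with the antagonist (range 3.58 to 4.02) and 3.38 with both ligands (3.30 to 3.57), so the groups did not overlap. The log2 difference was -0.18 (SE 0.0489, two-sided exact permutation p = 0.0286, adjusted over the 3 ratios 0.0857). For Psmb9 over Psmb6 the ratio was 0.293 and 0.277, with a log2 difference of -0.08 (SE 0.0321, exact permutation p = 0.0571, adjusted 0.0857). For Psmb8 over Psmb5 it was 0.722 and 0.724, a log2 difference of 0.0035 (SE 0.0588, exact permutation p = 1.0). None of the 3 ratios passed the adjustment, and a p that misses the threshold does not show that a ratio was equal.

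The constitutive subunits themselves were not called. Psmb5 was present at 66.9, 81.4, 74.5 and 82.8 CPM with the antagonist and at 67.4, 67.1, 66.4 and 63.8 CPM with both ligands, with a log2 fold change of -0.21 (SE 0.0540, adjusted p = 0.101) that was close to that of Psmb8. Of the 31-base words of Psmb5, 71.7% recur in other genes, mostly in the copy Gm3375, so its level and its ratio are uncertain. Psmb6 had a log2 fold change of -0.09 (SE 0.0369, adjusted p = 0.303) and Psmb7 of -0.05 (SE 0.0348, adjusted p = 0.550). Exons of Psmb7 share 405 bases with Nek6 on the other strand, so the ratio of Psmb10 to Psmb7 is uncertain as well. The lengths differ within each pair, 1705 and 3421 bases for Psmb10 and Psmb7, 3659 and 1872 for Psmb9 and Psmb6, and 2736 and 899 for Psmb8 and Psmb5. With the length trend taken out, the fitted log2 fold change of the inducible subunit minus that of its partner went from -0.18 to -0.14 for Psmb10, from -0.08 to -0.11 for Psmb9 and from 0.0095 to -0.04 for Psmb8, given as values without a test.

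**Figure D5:**
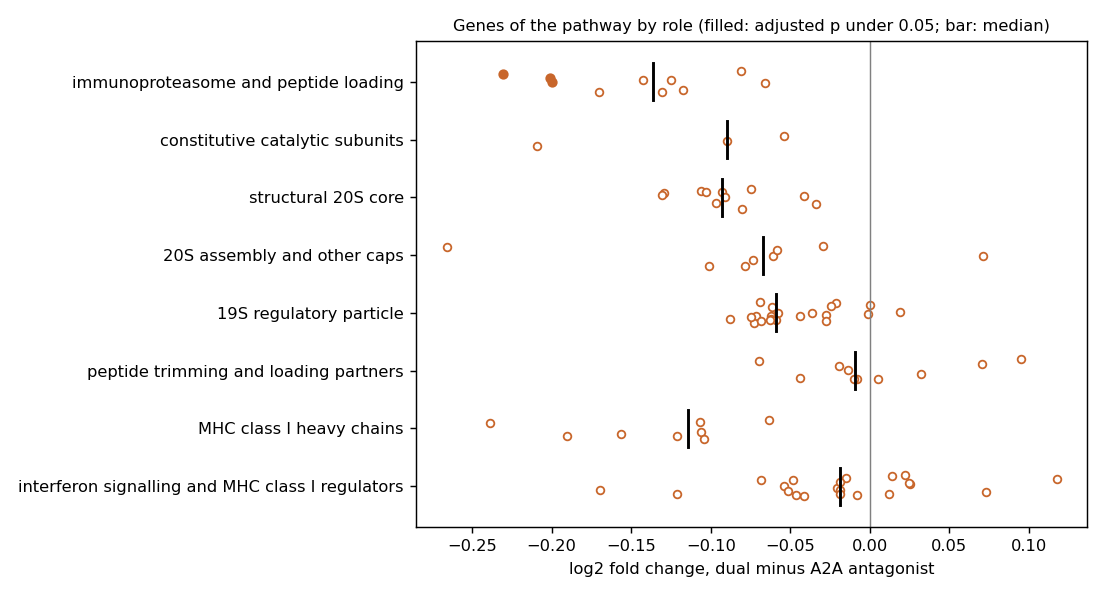
Log2 fold change (dual minus A2A antagonist) of each tested gene of the pathway, grouped by role, with the median as a black bar and genes with an adjusted p under 0.05 filled. The 3 filled points all belong to the immunoproteasome and peptide loading genes, whose median is -0.14, and medians of the other groups run from -0.11 (MHC class I heavy chains) to -0.01 (peptide trimming and loading partners).

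Other genes of the pathway were described in 7 lists, in which edgeR called 0 of 82 genes, DESeq2 called 9, and 23 had a lower level at an unadjusted p under 0.05 by edgeR. Beside these counts, DESeq2 called 417 of the 8877 genes it adjusted. By edgeR 6.81% of all genes, and 13.7% of genes of like level, were lower at that unadjusted p. All 8 MHC class I heavy chain genes, the partners of B2m, had values below 0, as had 48.5% of all genes and 55.1% of genes of like level. Their median log2 fold change was -0.11 (-0.09 with the length trend taken out), and 6 of them were lower at an unadjusted p under 0.05. H2-T23, a non-classical heavy chain, had the smallest p of these (443 ± 36.1 and 376 ± 22.1 CPM, n = 4 each, log2 fold change -0.24, adjusted p = 0.0602). Heavy chain genes are a family of similar copies, so their counts are uncertain.

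Genes of the core particle that are shared by all proteasomes were also below 0. This held for 11 of 11 structural subunits (median -0.09, 8 lower at an unadjusted p under 0.05), with Psma2 at -0.13 (adjusted p = 0.141). Of all genes, 48.5% were below 0 and 6.81% were lower at that unadjusted p. Of the assembly factors and other caps, 7 of 8 were below 0 (median -0.07), with Psmg4, a chaperone of core assembly, at -0.27 (adjusted p = 0.117). Of the 19S regulatory particle, which unfolds ubiquitin-tagged proteins, 19 of 21 were below 0 (median -0.06), with the ATPase subunit gene Psmc3 at -0.07 (adjusted p = 0.352). With the length trend taken out, the medians of these lists were -0.03 for the structural subunits, -0.03 for assembly and caps and -0.03 for the 19S particle.

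Partners that trim peptides or assist loading in the endoplasmic reticulum had a median of -0.009, with 6 of 10 below 0 and 1 higher at an unadjusted p under 0.05, the cytosolic peptidase Tpp2 (log2 fold change 0.10, adjusted p = 0.370). Genes of interferon signalling and class I regulation had a median of -0.02, with 14 of 21 below 0. Of the 21, 2 were lower at an unadjusted p under 0.05, beside 6.81% of all genes and 13.7% of genes of like level. Irf1, an interferon-induced transcription factor, had the smallest p of these (134 ± 4.97 and 119 ± 1.87 CPM, n = 4 each, log2 fold change -0.17, adjusted p = 0.0557), and its groups did not overlap. With the length trend taken out, the medians of both lists turned in sign, to 0.013 for trimming and loading and 0.0012 for interferon signalling.

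The 10 genes were compared over the 8 libraries with the mean of the other 9, after centring on the log2 CPM scale. Pearson r was between 0.91 and 0.97 for Psmb8, Psmb9, Psmb10, Psme1, Tap1, Tap2 and Tapbp, 0.73 for Psme2 and 0.54 for B2m and Nlrc5. Of 11041 other genes, those most like the mean of the 10 were Ube2l6, a conjugating enzyme for the ubiquitin-like protein ISG15 (r = 0.992), Stx6, a syntaxin of membrane traffic (0.987), Tmem147 (0.985), Gch1, the entry enzyme of tetrahydrobiopterin synthesis (0.981), and the growth factor gene Vegfb (0.974). Ube2l6 was itself lower in the dual group (158 and 138 CPM, log2 fold change -0.19, adjusted p = 0.0358). All these values come from the same 8 libraries and carry the difference between the groups.

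The libraries held 32630602 to 45878639 counts each, and the lowest count of any of the 10 genes in a library was 1953 (Nlrc5). Defining microglia markers were present, such as Csf1r (218 ± 5.47 CPM with the antagonist) and C1qa (476 ± 29.6), but P2ry12 (1.67 ± 0.216) and Tmem119 (7.41 ± 0.581) were low. Summed astrocyte markers (6087 to 6624 CPM over all libraries) and fibroblast markers (2369 to 2986 CPM) exceeded those of microglia, and lymphocyte markers did not exceed 0.311 CPM. The paper reports a high purity of microglia by antibody labelling. How much of the RNA of the 10 genes came from microglia was not measured. The 10 microglia markers summed to 1242 to 1339 CPM with the antagonist and 1175 to 1248 CPM with both ligands, and their median log2 fold change was -0.02. C1qa was called lower (476 and 403 CPM), and C1qb, also of complement C1q, was at 234 and 207 CPM (adjusted p = 0.0652), which together exceed the difference in the sum. Of the other markers Aif1 was at 58.9 and 50.9 CPM (log2 fold change -0.21, adjusted p = 0.110). Csf1r was at 218 and 235 CPM (log2 fold change 0.11, adjusted p = 0.171). In all, 4 of the 10 had values above 0 and 6 below. C1qa, C1qb and Aif1 (1040, 1088 and 1532 bases) are shorter than Csf1r (4885 bases). No marker value with the length trend taken out is given here. Summed oligodendrocyte markers were 460 to 496 CPM with the antagonist and 428 to 452 CPM with both ligands, ranges that did not overlap. In bulk libraries fewer cells of a type and less RNA per cell cannot be told apart, and the part of cell composition in the values of the 10 genes was not tested.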

How the data were processed

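RNA of 8 libraries was sequenced as paired ends. The authors aligned the reads with HISAT2 and counted them per gene with featureCounts 1.5.0-p3, and the processing notes name mm10. The deposited count values are raw, per library and without pooling. Deposited FPKM values, made by the authors from counts and gene length, were used only for an alternative of the subunit ratios, and gene lengths come from the same deposited table. Columns of the authors' own comparisons (fold change, p-value, adjusted p-value) were not used, nor were 9 columns of 3 control libraries that match no sample.

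The counts went into edgeR 4.0.16 (R 4.3.3, filterByExpr with a minimum count of 10, TMM factors, quasi-likelihood F test without covariates). P-values are two-sided, adjusted by Benjamini-Hochberg over all genes, and called under 0.05. CPM are TMM-scaled. Single values were compared by exact permutation over 70 arrangements (smallest p 0.0286). The planned adjustment of those p-values over the 10 genes is not given. Alternatives were RLE size factors, no filter, DESeq2 1.42.0, a replicate block, protein-coding genes only, leaving out each library, a gene length offset (also applied to the subunit pairs) and summed Psme2 and Psme2b counts. Scripts were tested on simulated data.

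The genes and lists were chosen with earlier results of these data known. Named were all 10 genes, their constitutive partners, the smallest p of each list and the 5 genes most like the mean of the 10 (mean log2 CPM of at least 3). Psme2b, Csf1r, C1qa, C1qb, Aif1, P2ry12 and Tmem119 were named after their values were seen. Sequences are from RefSeq (GRCm38.p6). Of the 10 genes, 8 had the deposited coordinates in GENCODE mouse release M21 (GRCm38).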

Additional observations from a re-analysis of the deposited data

Results flagged for a closer look

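The ratio of Psmb10 to Psmb7 in dual replicate 2 stood apart from its group. Its log2 value was 1.84 (1.8376), and those of the other 3 dual libraries were between 1.72 and 1.74. This was 1 of 26 groups of 4 libraries examined in this way, and chance sets a library apart in about 1 in 20 groups. Its CPM of Psmb10 was also the highest of the dual group.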

How the results depend on the processing

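RLE size factors changed no call. Without the filter on low counts 366 genes and 6 of the 10 were called, Psmb9 (-0.18), Psme1 (-0.14) and Tapbp (-0.15) being added, and 7 genes of the pathway lists. DESeq2 called 417 genes, 8 of the 10 (adding Psmb9 at -0.17, Psme1 at -0.13, Tap1 at -0.13, Tap2 at -0.12 and Tapbp at -0.15, log2 scale, to the 3) and 9 list genes. With protein-coding genes only, 63 genes and 1 list gene were called. With the length offset 9 genes and 0 of the 10 were called, with log2 values of -0.16 (Psmb8), -0.17 (Psmb10), -0.15 (Psme2) and 0.02 (0.0228, B2m, turned in sign). List medians moved to -0.0372 (constitutive catalytic), -0.0335 (structural), -0.0319 (assembly and caps) and -0.0257 (19S), and those of trimming partners (0.013) and interferon signalling (0.0012) turned in sign. The cause of the other shifts was not tested.

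Same-numbered libraries did not deviate together (r = -0.158, -0.047, -0.0903 and -0.206 over 11051 genes). The highest r, 0.216, was that of antagonist replicate 4 with dual replicate 2. Whether libraries shared a culture or an animal cannot be told from these values. The replicate block called 17 genes and 1 of the 10, Psmb10, with Psmb8 at -0.20 (adjusted p = 0.0778) and Psme2 at -0.20 (0.0738).

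Leaving out each library gave 0 to 172 genes called (0 without antagonist replicate 4 or dual replicate 3, 172 without antagonist replicate 1, 5 and 6 without antagonist replicates 2 and 3), 0 to 4 of the 10 (4 without antagonist replicate 1, 1 without dual replicate 2 or 4, 0 otherwise) and 0 to 6 list genes. Log2 fold changes ranged from -0.23 to -0.17 for Psmb8, -0.26 to -0.21 for Psmb10, -0.23 to -0.18 for Psme2 and -0.18 to -0.13 for Tapbp, and the 19S median from -0.0604 to -0.0433. The log2 difference of the Psmb8 to Psmb5 ratio ranged from -0.0352 to 0.0371 and was below 0 without antagonist replicate 2 (-0.022), antagonist replicate 4 (-0.0352) or dual replicate 3 (-0.0111). Each of the 10 genes had at least 1953 counts in every library.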
